A study of Mus musculus with 16 samples.

Results

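The interferon response genes described here are the transcripts that cells switch on when interferons reach them, followed in mammary glands of socially isolated and group-housed mice. A list of 37 gene symbols defined them, and each gene was read from the probe set with the highest mean level among those that name that gene alone. This gave 35 genes of the 18193 genes measured. Isg15 and Ifi44 are in the list but had no probe set naming them alone, and were not analysed here.

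All mice were FVB/N females homozygous for a transgene in which the C3(1) part of the rat promoter of prostatic steroid binding protein drives SV40 large Tag, a viral oncoprotein that gives rise to mammary tumours, and the grouped controls carried it like the isolated mice. After weaning, cohorts balanced on an open-field test lived either alone or with other females. The 4 groups were grouped mice at 15 weeks, isolated mice at 15 weeks, grouped mice at 20 weeks and isolated mice at 20 weeks, with 4 arrays in each. Glands were taken in estrus and at a fixed point of the dark phase, and total RNA of the whole gland was hybridised to Affymetrix arrays. Nothing in the labels states that every array came from its own mouse. The p-values then reflect only how far these arrays differ, which may be technical.

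Values are deposited log2 levels, so a difference of 1 is a doubling. The median gene lay between 8.86 and 8.91 on the arrays at 15 weeks and between 9.06 and 9.13 at 20 weeks. The ages therefore have different overall distributions, and age and any processing run cannot be told apart. Summed on the linear scale and given as log2, the luminal epithelial markers (7 of 8 measured) ranged from 14.47 to 15.31 over the arrays and the white adipocyte markers (5 of 6) from 14.33 to 15.99. No marker of the cell types listed lay below the array's lower quartile on every array. Cd79b, a B cell marker, was below it on all isolated arrays at 15 weeks, at 5.64 to 5.95 against quartiles of 6.77 to 6.79. In whole gland, fewer cells of a type and less RNA per cell cannot be told apart.

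Interferons are secreted proteins that warn tissue of infection and also shape immunity to tumours. Type I interferons signal through JAK kinases to Stat2 and Irf9, which act at the interferon-stimulated response element (ISRE), while many genes induced by interferon gamma carry the gamma-activated site (GAS). In the mammary gland, epithelium, fibroblasts, macrophages and other cells can all respond, and the response genes encode viral RNA sensors, antiviral effectors, antigen-processing subunits and feedback proteins.

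The promoters of the members were searched for both motifs. RefSeq promoter windows on GRCm38.p6, from 250 bases before to 50 after the transcription start, were matched for 28 of the 37 genes; Ido1, Mx1, Mx2, Oas2, Usp18, Dhx58, Rtp4, Parp9 and Parp14 had none. The ISRE core, searched as GAAANNGAAA on both strands, stood in the windows of 15 of these 28 genes (53.6%) against 1079 of all 27025 genes with a window (3.99%). The GAS, searched as TTCNNNGAA, stood in 8 of 28 (28.6%) against 9.55% of all genes. Counted by window, 46.9% of the members' 32 windows held the ISRE core against 3.44% of 32851 windows of the same length, and 25% held the GAS against 8.3%. A match describes letters in a window and is not a measured binding site. Matches of the motifs can overlap, as in Bst2.

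The 200 bases before the start, 5′ to 3′ on the gene's strand, are shown for 4 genes with ISRE cores in different layouts and then for 3 without one. The former are Ifit1, the RNA-binding effector discussed most below, Bst2, which tethers virus particles to the cell, Rsad2, an antiviral enzyme, and the GTPase Irgm1. Capitals mark the bases matched by either motif. Ifit1 (chr19:34640689-34640888, plus strand) has ISRE cores starting at -104 and -85 from the transcription start, Bst2 (chr8:71537473-71537672, minus strand) has 2 overlapping ISRE cores that run on from a GAS, Rsad2 (chr12:26456453-26456652, minus strand) has 1 ISRE core and Irgm1 (chr11:48871421-48871620, minus strand) has 2 overlapping ones. 
Ifit1: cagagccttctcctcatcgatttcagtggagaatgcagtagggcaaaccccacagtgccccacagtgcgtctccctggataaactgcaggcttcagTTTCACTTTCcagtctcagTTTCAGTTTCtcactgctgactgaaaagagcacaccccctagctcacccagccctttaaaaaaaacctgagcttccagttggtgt
Bst2: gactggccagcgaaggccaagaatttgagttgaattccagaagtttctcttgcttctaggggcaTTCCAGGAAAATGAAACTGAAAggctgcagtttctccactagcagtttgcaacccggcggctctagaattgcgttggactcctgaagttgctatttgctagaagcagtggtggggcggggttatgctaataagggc
Rsad2: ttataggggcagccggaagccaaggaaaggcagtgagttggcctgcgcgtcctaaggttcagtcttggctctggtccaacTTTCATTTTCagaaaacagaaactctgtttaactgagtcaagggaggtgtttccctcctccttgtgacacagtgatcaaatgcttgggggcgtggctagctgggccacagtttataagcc
Irgm1: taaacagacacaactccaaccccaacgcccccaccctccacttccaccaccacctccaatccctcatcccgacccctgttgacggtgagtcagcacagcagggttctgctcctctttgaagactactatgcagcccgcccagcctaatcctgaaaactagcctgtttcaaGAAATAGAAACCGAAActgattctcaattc
Irf1 (chr11:53769814-53770013, plus strand) and Psmb8 (chr17:34197995-34198194, plus strand) each have a GAS and no ISRE core, and Psmb9 (chr17:34187331-34187530, minus strand) matched neither motif in these letters.
Irf1: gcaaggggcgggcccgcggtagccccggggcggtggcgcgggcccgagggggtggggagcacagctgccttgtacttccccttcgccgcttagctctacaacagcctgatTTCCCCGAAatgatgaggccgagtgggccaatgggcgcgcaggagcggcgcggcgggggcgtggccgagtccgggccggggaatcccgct
Psmb8: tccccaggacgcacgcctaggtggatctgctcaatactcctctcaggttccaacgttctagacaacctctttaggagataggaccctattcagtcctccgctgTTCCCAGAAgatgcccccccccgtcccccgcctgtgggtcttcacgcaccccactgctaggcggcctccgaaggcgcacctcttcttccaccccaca
Psmb9: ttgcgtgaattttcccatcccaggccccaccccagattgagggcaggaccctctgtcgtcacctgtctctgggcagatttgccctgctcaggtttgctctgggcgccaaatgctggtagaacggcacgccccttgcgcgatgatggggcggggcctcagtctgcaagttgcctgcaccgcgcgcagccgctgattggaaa
Ifit3, a neighbour of Ifit1, has the same 2 ISRE matches in its own window, TTTCACTTTC at -156 and TTTCAGTTTC at -122, whereas the window of Ifit2, in the same gene cluster, held a GAS at -241 and no ISRE core.

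The genes span most of the array's range of signal. Ifitm3, which blocks viral entry at membranes, had the highest mean level over the 16 arrays, 13.11, above 99.0% of the genes measured. Mx1, a dynamin-like antiviral GTPase, had the lowest, 7.30, above 19.2% of genes, and Ido1, which degrades tryptophan, the next lowest, 7.53, above 22.4%. No member was below an array's lower quartile, which lay between 6.76 and 7.04, on any array. Levels of different genes come from different probes and are not compared further.

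At 15 weeks, the comparison of isolated with grouped mice asked whether living alone went with other levels of these transcripts. Of the 35 genes, Ido1 passed the test, and it was higher in isolated mice. Its levels were 7.33, 7.36, 7.23 and 7.27 in the 4 grouped arrays and 8.0, 8.08, 7.66 and 8.06 in the 4 isolated ones. The groups did not overlap, and isolated replicate 3 was the lowest of its group. The difference was 0.65 ± 0.09 (SE), or 1.57-fold, with a limma adjusted p of 0.0488. Over all genes, 8 of 18193 passed (0.044%), 4 of them higher (0.022%). The call sat close to the threshold: the adjusted p ranged from 0.0062 to 0.388 over the alternatives and single-array omissions. It was lost without grouped replicate 1 (0.0569), 2 (0.152) or 4 (0.0997) and without isolated replicate 1 (0.193), 2 (0.222) or 4 (0.133), and kept without replicate 3 of either group.

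Over the whole list, higher and lower members were about equal in number at 15 weeks. Of 35 genes, 18 were higher in isolated mice and 17 lower, with a median difference of 0.01 (log2) against -0.01 over all genes, 46.0% of which were higher. At an unadjusted p under 0.05 there were 3 members, with 9.7% of all genes past that line. Ido1 was higher, as were 3.88% of all genes, and Psmb8 and Psmb9 were lower, as were 5.82%. In 3 of the 35 genes the groups' arrays did not overlap, 1 higher (2.31% of all genes) and 2 lower (3.38%).

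The immunoproteasome subunits Psmb8 and Psmb9, which help cut proteins into peptides for class I presentation, were the lower pair. Psmb8 lay at 11.31, 11.38, 11.33 and 11.51 in grouped mice and at 11.08, 11.21, 11.09 and 11.23 in isolated mice. Psmb9 lay at 10.47, 10.38, 10.51 and 10.33 in grouped mice and at 10.21, 10.24, 10.21 and 10.31 in isolated mice. Every isolated array was below every grouped array in both genes, but neither passed the test, with differences of -0.23 ± 0.07 (SE, limma adjusted p = 0.377) and -0.18 ± 0.06 (0.420). Tap1, a subunit of the peptide transporter next to these genes, differed by -0.09 ± 0.08 (SE, limma adjusted p = 0.697). All 10 of the measured class I presentation genes outside the members were lower in isolated mice, with a median of -0.11, and none passed the test.

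The antiviral effectors, sensors and factors showed no call at 15 weeks. Among the oligoadenylate synthetases, which activate RNA degradation, Oas3 differed by 0.14 ± 0.07 (SE, limma adjusted p = 0.530), with 8.60, 8.50, 8.43 and 8.34 in grouped and 8.57, 8.61, 8.56 and 8.71 in isolated mice. Oasl2, a related protein, differed by 0.23 ± 0.13 (SE, 0.556 by limma), with 9.36, 9.49, 9.13 and 9.29 against 9.34, 9.77, 9.30 and 9.80. Both sets of arrays overlapped. Gbp2, an interferon-induced GTPase, lay the other way by -0.18 ± 0.12 (SE, limma adjusted p = 0.606), with 10.50, 10.82, 11.09 and 10.65 in grouped and 10.51, 10.70, 10.46 and 10.66 in isolated mice. The remaining members differed by between -0.13 (Mx1) and 0.21 (Irf7).

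Marker levels of some other cells differed with housing at 15 weeks, though no marker passed the test. The 7 measured macrophage markers had a summed level between 13.90 and 14.11 on the grouped arrays and between 13.47 and 13.81 on the isolated ones, without overlap, and all 7 were lower in isolated mice. The 6 conventional dendritic cell markers summed to 11.52 to 11.59 against 11.38 to 11.45. All 5 B and plasma cell markers were lower by sign in isolated mice (median -0.47), with Jchain, an antibody chain, at -1.01 ± 0.18 (SE, limma adjusted p = 0.101), and so were all 5 fibroblast markers (-0.18). Grouped replicate 1 stood apart, with B and plasma cell markers at 11.96 against 10.76 to 11.01 in the other grouped arrays and neutrophil markers at 11.84 against 10.36 to 10.81. The Gapdh 3′ minus 5′ difference, a measure of RNA integrity, was -0.06 ± 0.02 (SD, n = 4) in grouped and -0.01 ± 0.02 (SD, n = 4) in isolated arrays. With that difference as a covariate the Ido1 difference was 0.85 and its limma adjusted p 0.388, while 28 of 35 members were higher, with a median of 0.10. The part of cell mixture in these differences was not tested.

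At 20 weeks, the same comparison showed most members higher in isolated mice, but none passed the test. By sign, 29 of the 35 members were higher in isolated mice and 6 lower, with a median of 0.13 (log2) against -0.01 over all genes, 46.7% of which were higher. Of all genes, 2 passed the limma test (0.011%), both lower; at an unadjusted p under 0.05 there were 1545 genes (8.49%), 723 of them higher (3.97%). Among the members, 6 had an unadjusted p under 0.05 and all 6 were higher: Ifit3, Ifit1, Xaf1, Mx1, Usp18 and Ifit2, with limma adjusted p values of 0.567 to 0.583. Groups did not overlap in 1 member, Ifit1, against 2.21% of all genes that were higher without overlap.

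Of the Ifit genes, whose proteins bind foreign RNA and limit its translation, Ifit3 and Ifit1 had the 2 largest differences among the 35 members at 20 weeks. Ifit1 lay at 8.78, 8.78, 8.85 and 8.41 in grouped and at 8.92, 9.19, 8.89 and 9.62 in isolated mice, a difference of 0.45 ± 0.17 (SE, limma adjusted p = 0.567). Every isolated array was above every grouped array. Ifit3 lay at 8.81, 8.80, 9.06 and 8.51 in grouped and at 9.08, 9.40, 8.92 and 9.60 in isolated mice, a difference of 0.45 ± 0.16 (SE, 0.567 by limma). Isolated replicate 3 lay within the grouped range. Ifit2 lay at 9.48, 9.39, 9.23 and 9.11 in grouped and at 10.17, 9.57, 9.42 and 9.51 in isolated mice, a difference of 0.37 ± 0.16 (SE, 0.583 by limma), with isolated replicate 1 the highest array and isolated replicate 3 within the grouped range.

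**Figure D1:**
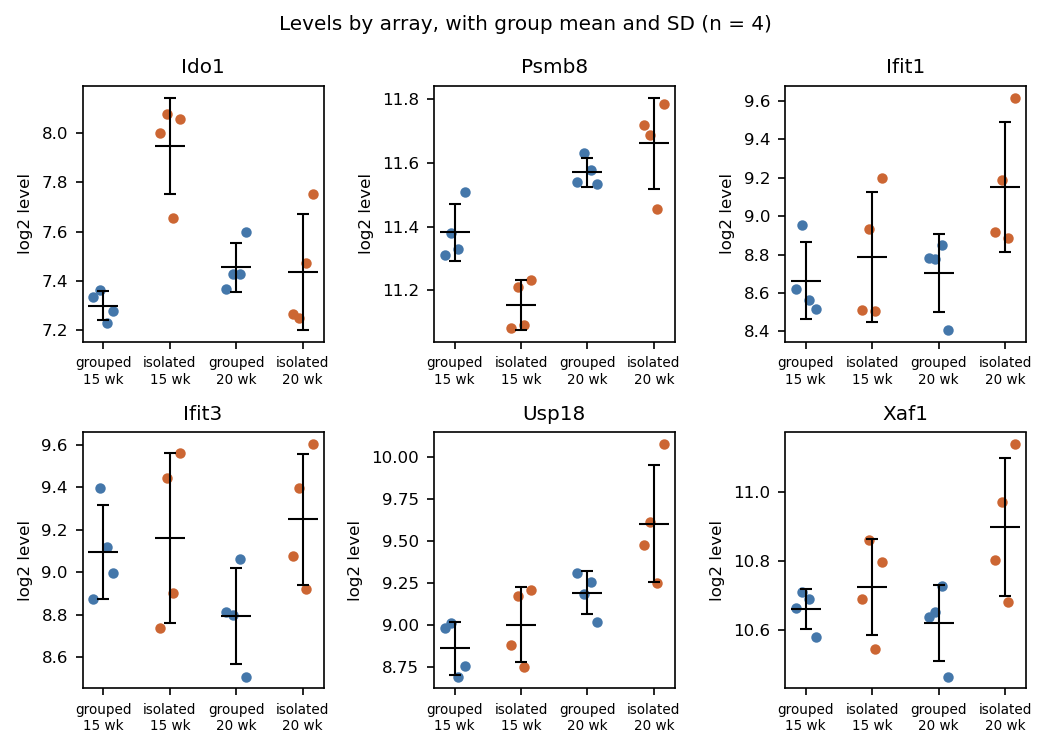
Log2 level (vertical axis) of Ido1, Psmb8, Ifit1, Ifit3, Usp18 and Xaf1 on each array (points), with group mean and SD (n = 4, black), for grouped and isolated mice at 15 and 20 weeks. The isolated arrays at 15 weeks were higher for Ido1 and lower for Psmb8, and isolated replicate 4 at 20 weeks (rightmost point) was the highest array of its group in all 6 genes.

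Usp18, Xaf1 and Mx1 also overlapped little between the groups. Usp18 removes ISG15 from proteins and damps type I signalling, and lay at 9.31, 9.18, 9.26 and 9.02 in grouped and 9.48, 9.61, 9.25 and 10.07 in isolated mice, a difference of 0.41 ± 0.16 (SE, limma adjusted p = 0.577). Xaf1, an interferon-induced protein that antagonises the apoptosis inhibitor XIAP, lay at 10.64, 10.65, 10.73 and 10.47 in grouped and 10.80, 10.97, 10.68 and 11.14 in isolated mice, a difference of 0.28 ± 0.10 (SE, 0.577 by limma). The other Xaf1 probe set, not used here, differed by 0.02. Mx1 lay at 7.29, 7.33, 7.33 and 7.17 in grouped and 7.27, 7.68, 7.49 and 7.71 in isolated mice, a difference of 0.25 ± 0.10 (SE, 0.577 by limma). In each gene 1 isolated array lay within the range of the grouped arrays.

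No transcription factor among the members passed. Irf7, which amplifies type I interferon production, lay at 9.81, 9.67, 9.92 and 9.39 in grouped and 9.69, 10.28, 9.92 and 10.33 in isolated mice, a difference of 0.36 ± 0.16 (SE, limma adjusted p = 0.588). Stat2 lay at 8.49, 8.54, 8.64 and 8.51 in grouped and 8.66, 8.63, 8.63 and 8.74 in isolated mice, a difference of 0.12 ± 0.06 (SE, 0.597 by limma). Irf9, its partner, differed by 0.14 ± 0.11 (0.714) and Irf1, a factor induced by interferon gamma, by 0.01 ± 0.08 (0.978). The RNA sensors Ifih1 and Ddx58, which detect viral RNA in the cytoplasm, differed by 0.12 and 0.08, and Dhx58, a regulator of both, by -0.03. Psmb8 and Psmb9, lower by sign at 15 weeks, differed by 0.09 and 0.09, and Tap1 by -0.11. Of the 10 other class I presentation genes, 8 were lower by sign at 20 weeks (median -0.04), and all 10 were over both ages. Ido1 levels were 7.37, 7.43, 7.43 and 7.60 in grouped and 7.26, 7.25, 7.47 and 7.75 in isolated mice, a difference of -0.02 ± 0.11 (SE, limma adjusted p = 0.965).

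**Figure D2:**
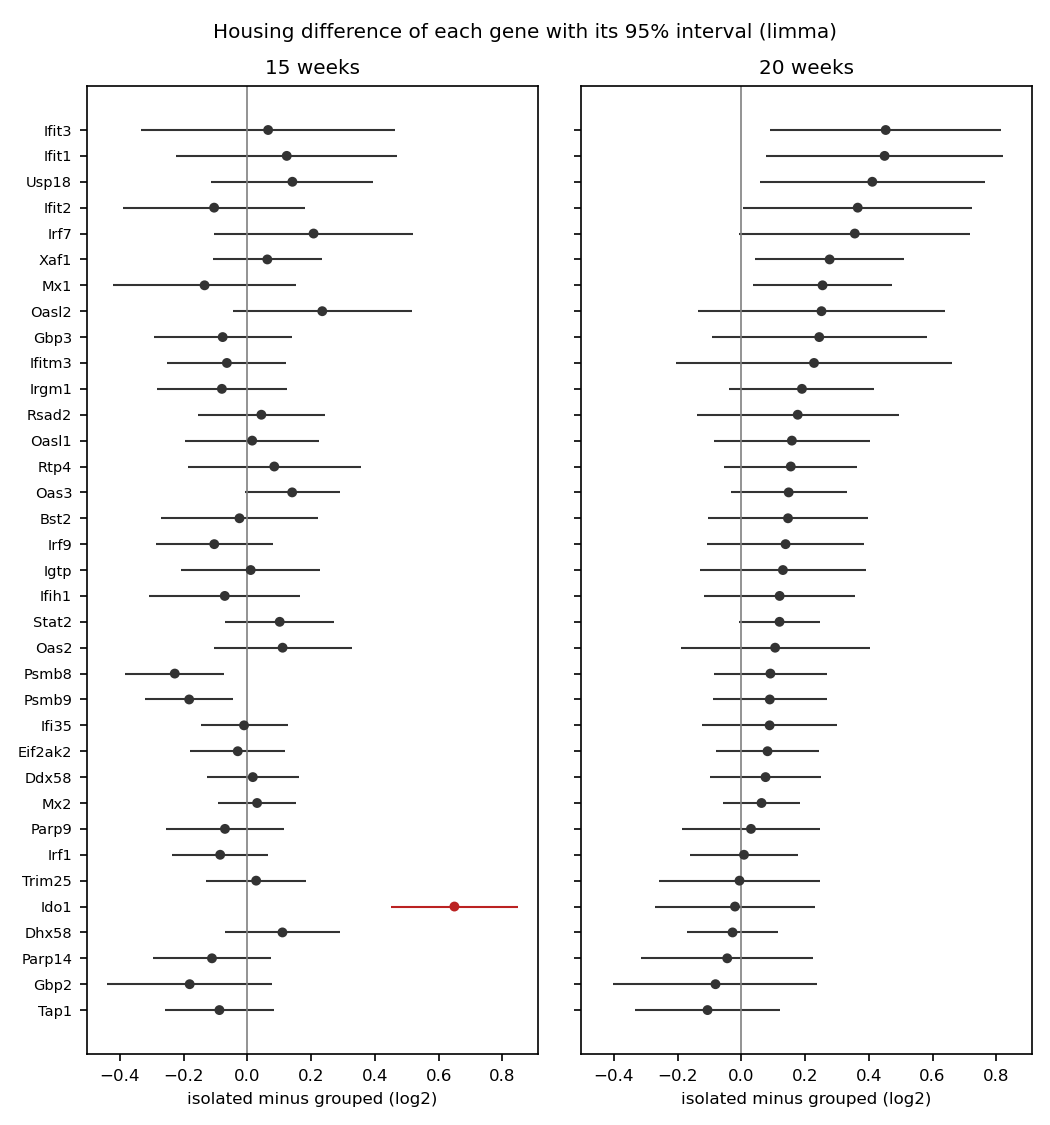
Isolated minus grouped difference (horizontal axis, log2) of the 35 interferon response genes at 15 and 20 weeks, with 95% intervals from the limma fit (lines), ordered by the difference at 20 weeks. Red marks an adjusted p under 0.05, which Ido1 alone reached at 15 weeks; at 20 weeks 29 points lie right of 0 and no gene passed.

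Isolated replicate 4 was the highest of its group in 29 of 35 members, where it was the highest for 27.1% of all genes. Without it, 27 members were higher and 8 lower, and the median was 0.08 in place of 0.13; leaving out each of the 8 arrays gave medians of 0.08 to 0.18. Of 32 other interferon-induced genes measured, 25 were higher in isolated mice at 20 weeks, with a median of 0.16, and none passed the test. Isg20, a nuclease, differed by 0.36 ± 0.08 (SE, limma adjusted p = 0.422) and Zbp1, a nucleic acid sensor, by 0.36 ± 0.12 (0.567). At 15 weeks 9 of these 32 were higher and the median was -0.07.

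No ligand, receptor, transducer or negative regulator outside the members passed the housing test at either age. Of 12 measured interferon ligands and receptors, 6 were higher and 6 lower at 20 weeks, with none called; at 15 weeks Ifngr1, a chain of the interferon gamma receptor, was lower by sign at -0.26 ± 0.06 (SE, limma adjusted p = 0.284). Among 16 transducers and sensors outside the members, 11 were higher at 20 weeks and 3 at 15 weeks. Among 8 negative regulators, Cish differed by -0.39 ± 0.12 at 20 weeks (SE, limma adjusted p = 0.524). Genes of tryptophan use beside Ido1 (7 measured, the tRNA synthetase Wars among them) had a median of 0.04 at 15 weeks and 0.00 at 20 weeks, with no call.

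Cell markers at 20 weeks leaned with housing as well, with no call among those listed. The macrophage markers' summed level lay between 13.27 and 14.46 on grouped and between 13.70 and 14.47 on isolated arrays, and all 7 were higher by sign in isolated mice. The adipocyte markers lay between 15.26 and 15.65 and between 14.33 and 15.34, and all 5 were lower by sign. The 4 measured plasmacytoid dendritic cell markers outside the members summed to 12.91 to 13.07 and 12.91 to 13.17. By sign all 5 skeletal muscle markers (median -0.60), all 7 luminal markers (-0.27) and all 5 endothelial markers (-0.25) were lower in isolated mice. All 5 fibroblast markers were higher (0.32). The part of these cells in the interferon gene differences was not tested.

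Over both ages, housing had no call in any of the 18193 genes by limma (0%), with 1167 at an unadjusted p under 0.05 (6.41%). Among the members 8 had an unadjusted p under 0.05, all higher in isolated mice (3.11% of all genes): Ido1, Oas3, Usp18, Irf7, Xaf1, Stat2, Ifit1 and Oasl2, with limma adjusted p from 0.723 to 0.764. Ido1 differed by 0.31 ± 0.11 (SE) and Oas3 by 0.14 ± 0.05 (SE). The test of whether the housing difference changed with age gave 2 calls over all genes (0.011%) and none among the members by limma. At an unadjusted p under 0.05 there were 2313 genes (12.7%) and 4 members, 3 of them with a more positive difference at 20 weeks (7.24% of all genes) and 1 with a more negative one (5.47%). Ido1 had the smallest adjusted p of the members, with the difference at 20 weeks lower than that at 15 weeks by 0.67 ± 0.15 (SE, limma adjusted p = 0.174). Without isolated replicate 4 at 20 weeks this became -0.78 with a limma adjusted p of 0.0173. Leaving out that array also raised the calls over all genes, from 2 to 139 of 18193. Over all alternatives and omissions the adjusted p of Ido1 ranged from 0.0173 to 0.377. Psmb8 (0.32 ± 0.10, adjusted p = 0.236), Psmb9 (0.27 ± 0.10, 0.279) and Mx1 (0.39 ± 0.18, 0.371) leaned the other way without passing.

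Within a group, the levels of many interferon response genes varied together from array to array. After each group's mean was taken off, the mean correlation between pairs of the 35 members was 0.42 over 16 arrays, where the mean over pairs of all genes was 0.02. The figures were 0.41 against 0.04 at 15 weeks and 0.44 against 0.01 at 20 weeks. These correlations describe the arrays and carry no test. Ifit1 tracked the mean of the other members best (r = 0.96), then Gbp3 (0.95), Ifih1 (0.93), Xaf1 (0.93) and Usp18 (0.92). Dhx58 (-0.20), Mx2 (-0.06), Irf1 (-0.03) and Psmb9 (0.11) did not follow it, and Ifit2 did so at 15 weeks (0.88) but not at 20 weeks (-0.25). Marker lists varied with the members too: over the 8 arrays of 15 weeks, the mean of the members correlated with that of macrophage markers at 0.91 and of fibroblast markers at 0.89. Over the 8 arrays of 20 weeks it correlated with luminal markers at 0.86, adipocyte markers at 0.77 and NK cell markers at -0.76, and with macrophage markers at 0.30. The part of these cells in the shared variation was not tested.

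**Figure D3:**
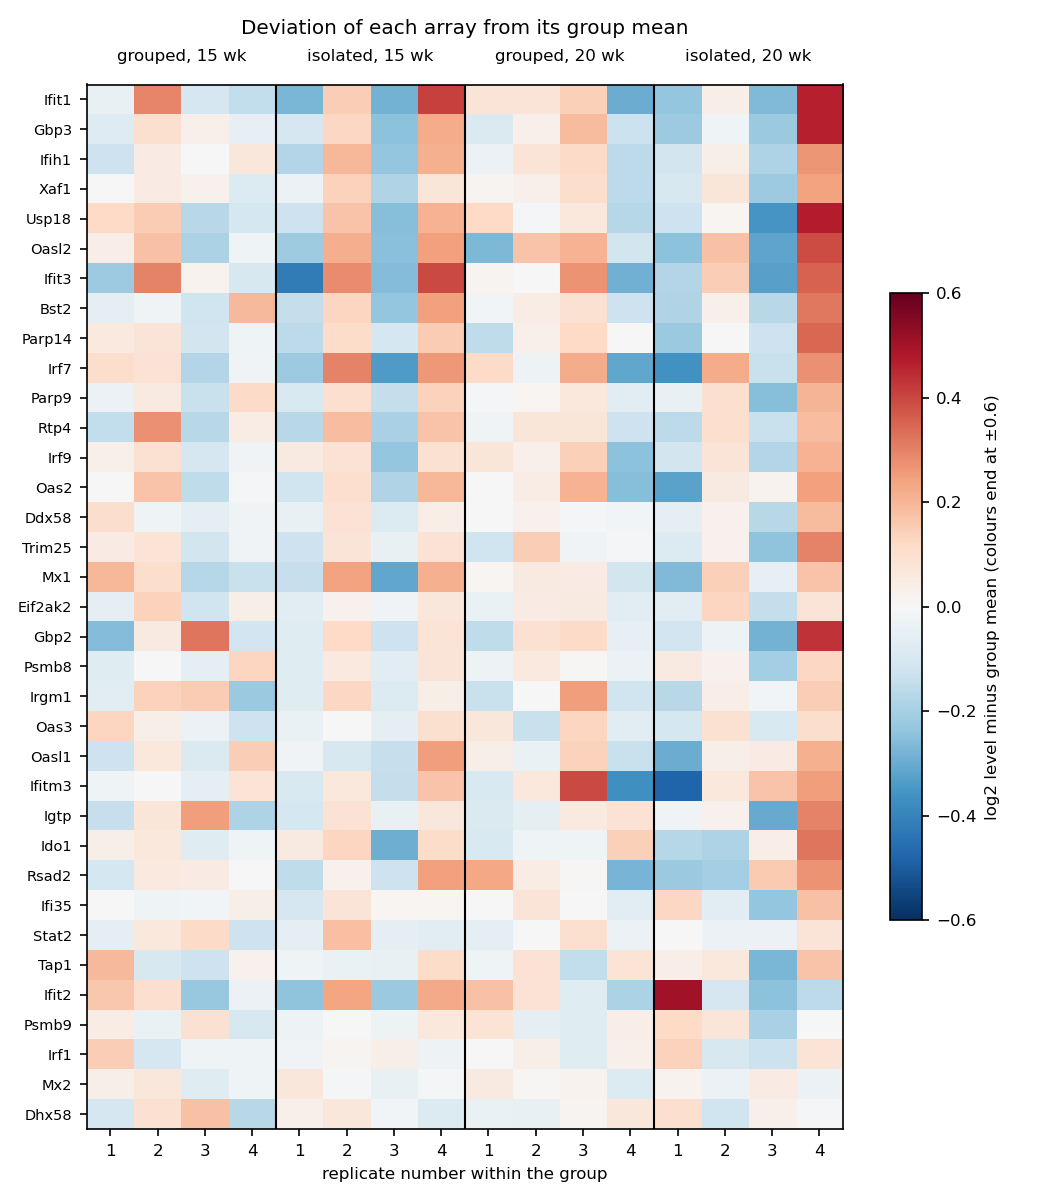
Log2 level of each of the 35 genes (rows, ordered by correlation with the other members) on each array (columns, by group and replicate number) minus its group mean; red is above and blue below, with colours ending at 0.6 either way. Isolated replicate 4 at 20 weeks is red in 32 genes. Ifit2 is below its group mean there (9.51 against 9.67), and Dhx58 and Mx2, in the lowest rows, are slightly below theirs. Isolated replicate 3 at 15 weeks is above its group mean in only 2 genes.

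The SD of the deposited levels over the 4 arrays was larger in isolated than in grouped mice for 24 of the 35 members at 15 weeks and for 31 at 20 weeks. The median SD of the members over 4 arrays was 0.14 in isolated and 0.11 in grouped mice at 15 weeks, against 0.08 and 0.11 for all genes. At 20 weeks it was 0.20 in isolated and 0.11 in grouped mice, against 0.11 and 0.09 for all genes. The mean level over the 35 members was 9.66, 9.74, 9.63 and 9.64 in grouped and 9.58, 9.79, 9.54 and 9.82 in isolated arrays at 15 weeks. It was 9.89, 9.93, 9.98 and 9.80 in grouped and 9.94, 10.07, 9.90 and 10.26 in isolated arrays at 20 weeks. At 15 weeks, isolated replicates 2 and 4 were high and 1 and 3 low, spanning the grouped arrays on both sides; isolated replicate 4 was also the highest of its group for 47.9% of all genes, against 20 of the 35 members. The difference in spread was not tested.

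Between 15 and 20 weeks, many genes changed in either housing, so a member's change is common background here. With each array's median over genes taken off, 6799 of 18193 genes passed in grouped mice (37.4%) and 9013 in isolated mice (49.5%). In grouped mice 9 of 35 members passed, 5 rose and 4 fell, against 18.8% and 18.6% of all genes in those directions. In isolated mice 11 passed, 10 rose and 1 fell, against 26.2% and 23.3%. The members' medians were 0.03 in grouped and 0.20 in isolated mice, against 0.01 and 0.01 over all genes. Arrays of the 2 ages did not overlap in 8 members in grouped mice, 4 higher and 4 lower (17.5% and 18.3% of all genes). They did not overlap in 8 in isolated mice, 7 higher and 1 lower (25.2% and 22.1%).

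In grouped mice the genes that rose were a ubiquitin ligase, antiviral effectors and a peptide transporter subunit, with levels given from here as log2 above or below the array's median gene. Trim25, which modifies the sensor Ddx58, went from 1.36, 1.40, 1.20 and 1.25 at 15 weeks to 1.57, 1.82, 1.65 and 1.69 at 20 weeks, a rise of 0.38 ± 0.08 (SE, limma adjusted p = 0.00446). Oas2 went from 0.87, 1.04, 0.72 and 0.82 to 1.28, 1.31, 1.47 and 1.03, a rise of 0.41 ± 0.10 (SE, 0.0124 by limma). Trim25 did not overlap between the ages, and in Oas2 grouped replicate 4 at 20 weeks lay within the younger range. Ifit2 went from 0.00, -0.05, -0.38 and -0.23 to 0.38, 0.27, 0.11 and 0.02 (0.36 ± 0.10, SE, 0.0223 by limma). Tap1 went from 0.32, 0.03, 0.00 and 0.11 to 0.38, 0.47, 0.24 and 0.49 (0.28 ± 0.09, SE, 0.0306 by limma). Mx2, a relative of Mx1, went from -0.28, -0.25, -0.39 and -0.38 to -0.09, -0.16, -0.15 and -0.23 (0.17 ± 0.06, SE, 0.0481 by limma). Ifit2 and Mx2 did not overlap between the ages, while Tap1 did. Tap1 had 4 probe sets, and those not used here differed by -0.02, 0.18 and -0.12 in grouped mice. Trim25 had 3, and those not used differed by 0.21 and -0.10. The Mx2 call was lost on leaving out any of the 8 arrays (limma adjusted p 0.0515 to 0.121) and that of Tap1 in 6 of 8 (0.0535 to 0.0843), all but grouped replicate 1 at 15 weeks and 3 at 20 weeks. That of Ifit2 was lost without grouped replicate 3 at 15 weeks or 1 or 2 at 20 weeks (0.0514 to 0.0627).

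In isolated mice these 5 genes passed again. Ifit2 went from -0.50, -0.03, -0.48 and -0.06 at 15 weeks to 1.12, 0.48, 0.31 and 0.38 at 20 weeks, a rise of 0.83 ± 0.18 (SE, limma adjusted p = 0.00429), without overlap. Oas2 went from 0.87, 1.08, 0.81 and 1.15 to 1.10, 1.44, 1.39 and 1.60 (0.41 ± 0.11, SE, 0.0141 by limma), and Trim25 from 1.22, 1.41, 1.30 and 1.40 to 1.64, 1.71, 1.43 and 1.94 (0.35 ± 0.10, SE, 0.0178). Isolated replicate 1 at 20 weeks overlapped the younger arrays in Oas2, and no array did in Trim25. Tap1 went from 0.02, -0.01, 0.00 and 0.12 to 0.37, 0.36, 0.01 and 0.44 (0.26 ± 0.09, SE, 0.0381 by limma), and Mx2 from -0.21, -0.30, -0.32 and -0.33 to -0.02, -0.12, -0.05 and -0.16 (0.20 ± 0.06, SE, 0.0139). In Tap1 isolated replicate 3 at 20 weeks was the low array, and its probe sets not used here differed by 0.00, 0.06 and -0.20. The Tap1 call was lost in 6 of 8 omissions (limma adjusted p 0.0672 to 0.0944), all but isolated replicate 4 at 15 weeks and 3 at 20 weeks, and the Trim25 call without isolated replicate 1 at 15 weeks (0.0533).

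Another 5 genes rose past the threshold in isolated mice and did not pass in grouped mice; whether the age changes differ is the interaction test above, in which none of them passed. Irf9, the DNA-binding partner of Stat2, went from 0.50, 0.53, 0.21 and 0.51 to 0.81, 0.97, 0.70 and 1.06 (0.45 ± 0.10, SE, limma adjusted p = 0.00436). Psmb8 went from 2.22, 2.34, 2.23 and 2.33 to 2.66, 2.60, 2.35 and 2.66 (0.29 ± 0.08, SE, 0.0144 by limma). The ages did not overlap in either gene. Oas3 went from -0.30, -0.27, -0.31 and -0.19 to -0.14, 0.03, -0.17 and 0.00 (0.20 ± 0.06, SE, 0.0269 by limma). Oasl1 went from 0.06, -0.02, -0.06 and 0.30 to 0.12, 0.42, 0.42 and 0.57 (0.32 ± 0.11, SE, 0.0330 by limma). Irf1 went from 2.24, 2.26, 2.29 and 2.19 to 2.63, 2.36, 2.31 and 2.50 (0.21 ± 0.08, SE, 0.0449 by limma). Oasl1 overlapped between the ages and Oas3 and Irf1 did not. On leaving out 1 array, the Irf1 call was lost in 6 of 8 cases (limma adjusted p 0.0714 to 0.1), all but isolated replicates 2 and 3 at 20 weeks. The Oasl1 call was lost in 6 of 8 (0.0634 to 0.0933), all but isolated replicate 4 at 15 weeks and 1 at 20 weeks, and the Oas3 call in 5 of 8 (0.0592 to 0.0783), all but isolated replicate 4 at 15 weeks and 1 and 3 at 20 weeks.

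The members that fell past the threshold were 4 in grouped mice and Ido1 in isolated mice. In grouped mice Ifit3 went from 0.00, 0.53, 0.25 and 0.09 to -0.28, -0.32, -0.05 and -0.58, a change of -0.52 ± 0.13 (SE, limma adjusted p = 0.0132). Xaf1 went from 1.79, 1.84, 1.82 and 1.67 to 1.54, 1.54, 1.61 and 1.38 (-0.26 ± 0.07, SE, 0.0177 by limma). Neither gene overlapped between the ages. The Xaf1 probe set not used here differed by -0.07. The immunity GTPase Irgm1 went from 1.44, 1.65, 1.66 and 1.24 to 1.00, 1.12, 1.36 and 1.02 (-0.37 ± 0.11, SE, 0.0285 by limma), and the ADP-ribosyltransferase Parp14 from 1.12, 1.14, 0.95 and 1.00 to 0.68, 0.85, 0.93 and 0.84 (-0.23 ± 0.07, SE, 0.0364). Irgm1 overlapped and Parp14 did not. The Irgm1 call was lost in 5 of 8 omissions (limma adjusted p 0.0664 to 0.0815: grouped replicates 2 and 3 at 15 weeks and 1, 2 and 4 at 20 weeks). The Parp14 call was lost in 5 of 8 (0.0675 to 0.101: grouped replicates 1 and 2 at 15 weeks and 1, 2 and 4 at 20 weeks), and the Xaf1 call without grouped replicate 2 at 15 weeks (0.0547). In isolated mice Ido1 went from -0.86, -0.80, -1.21 and -0.84 to -1.79, -1.84, -1.64 and -1.37, a change of -0.73 ± 0.12 (SE, limma adjusted p = 0.000942), without overlap. The 15-week isolated arrays are those in which Ido1 was high in the housing comparison, so the comparisons share them. In grouped mice Ido1 did not pass, with -1.54, -1.51, -1.65 and -1.64 at 15 weeks and -1.73, -1.69, -1.69 and -1.49 at 20 weeks.

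**Figure D4:**
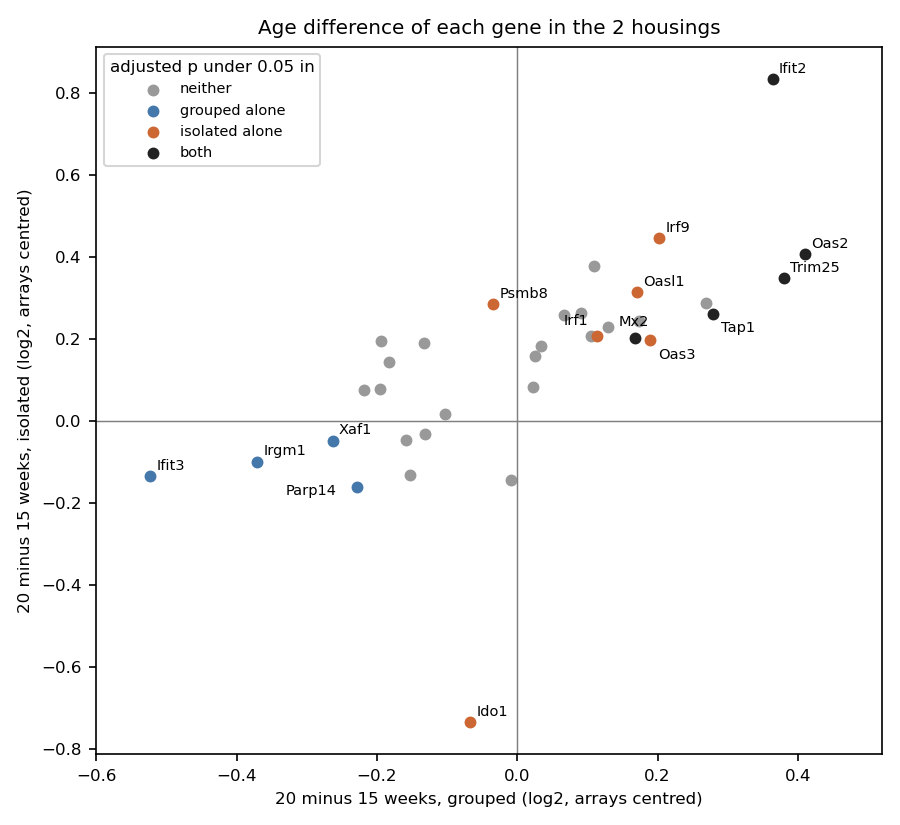
Change from 15 to 20 weeks in grouped mice (horizontal axis, log2, arrays centred at their median) against that in isolated mice (vertical axis) for the 35 interferon response genes; colours give where the adjusted p was under 0.05 and names are given for genes that passed. Ifit2, Oas2, Trim25, Tap1 and Mx2 passed in both, and Ido1 lies alone at the bottom, -0.73 in isolated mice.

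Among the other pathway genes, Cxcl9, a chemokine induced by interferon gamma, differed between the ages. Its difference was -0.89 ± 0.19 in grouped (SE, limma adjusted p = 0.00582) and -0.93 ± 0.09 in isolated mice (5.76e-05). The feedback inhibitor Socs3 differed by 1.25 ± 0.17 (SE, limma adjusted p = 0.000807) in grouped and 1.44 ± 0.11 (2.26e-05) in isolated mice. Of all genes, 37.4% passed in grouped and 49.5% in isolated mice. Of the 32 other interferon-induced genes, 2 rose and 9 fell in grouped mice, where 18.8% and 18.6% of all genes did. In isolated mice 13 rose and 3 fell, against 26.2% and 23.3%. Cxcl10, a chemokine of the same 5-gene list, rose by 0.61 ± 0.19 in isolated mice (SE, limma adjusted p = 0.0232), and in grouped mice its difference was 0.15 ± 0.08 (0.159). Left uncentred, all genes moved by a median of 0.23 in grouped and 0.24 in isolated mice. Of 11362 genes then past the threshold in grouped mice 10196 were higher, and of 12119 in isolated mice 10422 were. Among the members, 19 then passed in grouped mice, all higher, and 24 in isolated mice, 23 of them higher. Ifit3, Xaf1, Irgm1 and Parp14 did not pass uncentred, so their falls are relative to the array's median gene. With the Gapdh covariate, Trim25 and Oas2 were the only members to pass in grouped mice, where 2005 of 18193 genes passed in place of 6799.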

How the data were processed

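The 16 arrays were deposited as log2 values, made with RMA in affy per the submitters' processing notes, and were used as deposited; build and versions are not given in the sources used here. Of 45101 probe sets, 34945 named 1 gene, 932 several and 9211 were unlisted; 64 Affymetrix controls were left out. The probe set of highest mean was kept for each of 18193 genes, so the value of a gene rests on those probes. Of the 35 genes, 22 had 1 such probe set and 13 several, all of 1 sign in 6 (housing at 15 weeks), 8 (20 weeks), 6 (age, grouped) and 6 (age, isolated). Arrays limit precision by their number, 4 a group.

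Each test was limma 3.58.1 (R 4.3.3; lmFit, eBayes with trend), with Benjamini-Hochberg over all genes and a threshold of 0.05. Housing used the 8 arrays of an age; age used 8 arrays of a housing, centred at their median; the interaction and the effect over both ages used all 16. Genes named are every member past the threshold, the 6 of smallest p in a comparison and Ido1, with up to 3 of each pathway list. Members and lists were chosen with earlier results of these data known. The fit was tested on simulated data. Alternatives were quantile normalization, eBayes without trend or robust, a filter at the 40th percentile, another probe set, a replicate block, a Gapdh covariate, all arrays in 1 fit, no centring and leaving out each array. Promoters were RefSeq's on GRCm38.p6.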

Additional observations from a re-analysis of the deposited data

Results flagged for a closer look

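Of 144 tests for an array standing apart within a group of 4, 4 met the line, where chance gives about 5%. Ifit1 in grouped replicate 4 at 20 weeks was 8.41 against 8.78 to 8.85 in the others. Irf9 in isolated replicate 3 at 15 weeks was 9.08 against 9.37 to 9.41. Stat2 in isolated replicate 2 at 15 weeks was 8.75 against 8.50 to 8.52. Tap1 in isolated replicate 4 at 15 weeks was 9.02 against 8.87 to 8.88.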

How the results depend on the processing

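The Ido1 call at 15 weeks is the 1 member call for housing, and it was 0 under quantile normalization, eBayes without trend, the 40th percentile filter (which leaves Ido1 out), the probe set of largest variance, the Gapdh covariate and all 16 arrays in 1 fit, and 0 to 1 on leaving out an array. The interaction gave 0 to 1 members on leaving out an array. The 1 was Ido1 without isolated replicate 4 at 20 weeks, where 139 of 18193 genes passed. For age in grouped mice, 9 members became 2 with the Gapdh covariate and 19 without centring, with the median moving from 0.03 to 0.25; leaving out an array gave 4 to 9, with 5 without grouped replicate 2 or 3 at 15 weeks or 1 at 20 weeks and 4 without grouped replicate 2 at 20 weeks. For age in isolated mice, 11 became 7 with the filter and 24 without centring, and 6 to 13 on leaving out an array, with 6 without isolated replicate 1 and 7 without 2 or 3 at 15 weeks. Over all genes in grouped mice, 6799 became 2005 with the Gapdh covariate, 11362 without centring and 4970 to 6879 on leaving out an array. In isolated mice 9013 became 12119 without centring and 7428 to 9096 on leaving out an array. The filter kept 10916 genes, Ido1 not among them, and 5776 of these passed. Ido1 at 20 weeks changed sign without grouped replicate 4 (0.03), isolated replicate 1 (0.04) or isolated replicate 2 (0.042), from -0.02, over a range of -0.13 to 0.04; for age in grouped mice it was 0.16 without centring. The cause of these shifts was not tested. At 20 weeks no member passed under any alternative run. With the replicate number as a block, 1 member passed at 15 weeks and 0 at 20 weeks, with 17 and 3 of 18193 genes. Same-numbered arrays of the 2 housings correlated between -0.10 and 0.36 at 15 weeks and -0.16 and 0.49 at 20 weeks. Arrays of unlike number correlated between -0.29 and 0.13 and between -0.64 and 0.26. Whether the numbers pair the arrays was not tested. The age counts with the block were 7 in grouped and 16 in isolated mice, where 6097 and 9090 of 18193 genes passed.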
